A study of Mus musculus with 47 samples.

Results

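JB6 cells carrying an shRNA against AnxA2 were compared 2 h after 100 cGy of X-rays with the sham-treated cells of the same line and time, in 6 arrays of 47. These 6 arrays, 3 per group, are all the arrays that the labels give for these 2 groups, and the comparison was picked with earlier results of these data known. After the dose, Mdm2, the ubiquitin ligase that holds p53 down, rose 1.54-fold, and Slc19a2, a thiamine transporter of the plasma membrane, rose 1.59-fold. No other gene of 8675 tested passed an adjusted p of 0.05, and none fell. Cdkn1a, which encodes the cell cycle inhibitor p21, differed by 0.22 on the log2 scale and did not pass.

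JB6 is a mouse epidermal cell line, labelled here as progenitor cells. Per the labels, cells grown in MEM with 5% fetal bovine serum were transduced by retrovirus with the AnxA2 shRNA or with the vector alone and selected with puromycin, so that the sham-treated controls of this comparison carry the shRNA as well. The whole study sampled both lines at 2, 6 and 24 h after 10 or 100 cGy, with sham-treated arrays at 2 and 24 h. Beside the 6 arrays, 3 arrays of shRNA cells 2 h after 10 cGy and 6 arrays of vector cells at 2 h (100 cGy and untreated) served for comparison. Each line is 1 shRNA or vector population, and the labels do not say whether the replicates were separate cultures, so the p-values measure the spread between these samples, which may be technical. In such bulk RNA, fewer cells that express a gene and less RNA of it per cell cannot be told apart.

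Ionizing radiation breaks DNA, and the kinases that sense the breaks stabilise the transcription factor p53. p53 then raises genes that stop the cell cycle (Cdkn1a), repair DNA or start apoptosis, and also Mdm2, whose protein marks p53 for destruction and so closes a feedback loop. Annexin A2, the product of the gene targeted by the shRNA, is a calcium-dependent protein that binds membrane lipids and actin.

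The promoters of the genes that rose, and of Cdkn1a as the best known p53 target, are shown because the radiation response is read here through p53 targets. Each runs from 250 bases before to 50 after the transcription start in RefSeq's GRCm38.p6 tables, and capitals mark matches to the p53 consensus half-site, a motif of 10 letters searched on both strands with no overlap between the matches shown. The Mdm2 window is chr10:117710709-117711008 on the minus strand, that of Slc19a2 chr1:164248796-164249095 on the plus strand, and that of Cdkn1a chr17:29090729-29091028 on the plus strand.
Mdm2: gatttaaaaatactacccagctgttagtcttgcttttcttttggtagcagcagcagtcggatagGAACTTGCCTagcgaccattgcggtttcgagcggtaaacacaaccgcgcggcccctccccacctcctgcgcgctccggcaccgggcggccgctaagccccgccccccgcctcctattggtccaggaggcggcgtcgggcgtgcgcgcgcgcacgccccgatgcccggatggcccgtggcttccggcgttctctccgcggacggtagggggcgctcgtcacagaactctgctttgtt
Slc19a2: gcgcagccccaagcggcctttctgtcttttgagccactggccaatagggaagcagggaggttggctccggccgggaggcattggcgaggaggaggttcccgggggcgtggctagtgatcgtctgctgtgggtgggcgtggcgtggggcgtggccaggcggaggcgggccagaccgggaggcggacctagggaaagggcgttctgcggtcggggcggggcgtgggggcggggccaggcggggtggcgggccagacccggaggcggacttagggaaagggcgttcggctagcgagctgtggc
Cdkn1a: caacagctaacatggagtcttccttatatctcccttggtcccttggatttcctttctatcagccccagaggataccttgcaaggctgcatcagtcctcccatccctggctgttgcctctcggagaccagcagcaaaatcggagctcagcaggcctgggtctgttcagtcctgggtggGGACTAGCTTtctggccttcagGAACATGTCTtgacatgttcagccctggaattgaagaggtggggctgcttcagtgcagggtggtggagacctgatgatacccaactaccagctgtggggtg
The Mdm2 window held 1 match, which begins 186 bases before the start. The Cdkn1a window shown held 2, at 73 and 51 bases before the start that this window uses. A second Cdkn1a window in the table, not shown, held none. Which of the 2 Cdkn1a windows is active in these cells was not measured. The Slc19a2 window held none. Of all 32851 windows of this length in the table, 8.356% held at least 1 match. A match describes the letters only, and whether p53 binds there was not measured here. The p53-responsive promoter known for Mdm2 lies in the first intron of the gene.

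Annexin A2 RNA was lower in the shRNA line with and without radiation. The Anxa2 signal was 11.10, 10.85 and 11.22 in replicates 1 to 3 at 100 cGy and 11.10, 11.11 and 11.15 in the untreated shRNA arrays. In vector cells at 2 h it was 12.66, 12.57 and 12.60 after 100 cGy and 12.66, 12.62 and 12.34 untreated. No shRNA array reached a vector array, and the shRNA means stood at 34.0% of the vector mean at 100 cGy and at 37.3% untreated. The labels state a knockdown above 95% by other methods. All signals here are log2 RMA values, so that a difference of 1 is a doubling. Within the shRNA line, the 100 cGy minus untreated difference of Anxa2 was -0.06 ± 0.08 (SE of the fit, n = 3 per group).

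Among the 9 shRNA arrays at 2 h, 2 had a raised signal at the 3' over the 5' control probe set of Gapdh, a measure that grows when RNA or its copies are shortened. The log2 difference was 0.492 in 100 cGy replicate 2 and 0.309 in untreated replicate 1, against -0.06 to 0.13 in the other 7. The Actb controls gave 0.540 and 0.535 for the same arrays, against 0.25 to 0.37. The first principal component of these 9 arrays held 50.34% of the variance, with 100 cGy replicate 2 at 27.51, untreated replicate 1 at 7.04 and the others between -10.86 and 2.49. Each group of the comparison thus holds 1 of these arrays, and results are given with all 6 arrays and with the 4 that remain without both. Vimentin (Vim), of the fibroblast list, averaged 13.35 in the 6 arrays, and 12 of 14 fibroblast markers lay above the low-signal limit of 4.35, against 8 of 17 keratinocyte, 5 of 11 leukocyte, 3 of 6 melanocyte and 1 of 8 endothelial markers. Keratin signals were low for a line of epidermal origin, with Krt10 the brightest keratinocyte marker at 6.89. The mean over each of these marker lists overlapped between the 100 cGy and untreated arrays (fibroblast 9.39 to 9.57 against 9.49 to 9.61, leukocyte 4.42 to 4.58 against 4.34 to 4.50).

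**Figure D1:**
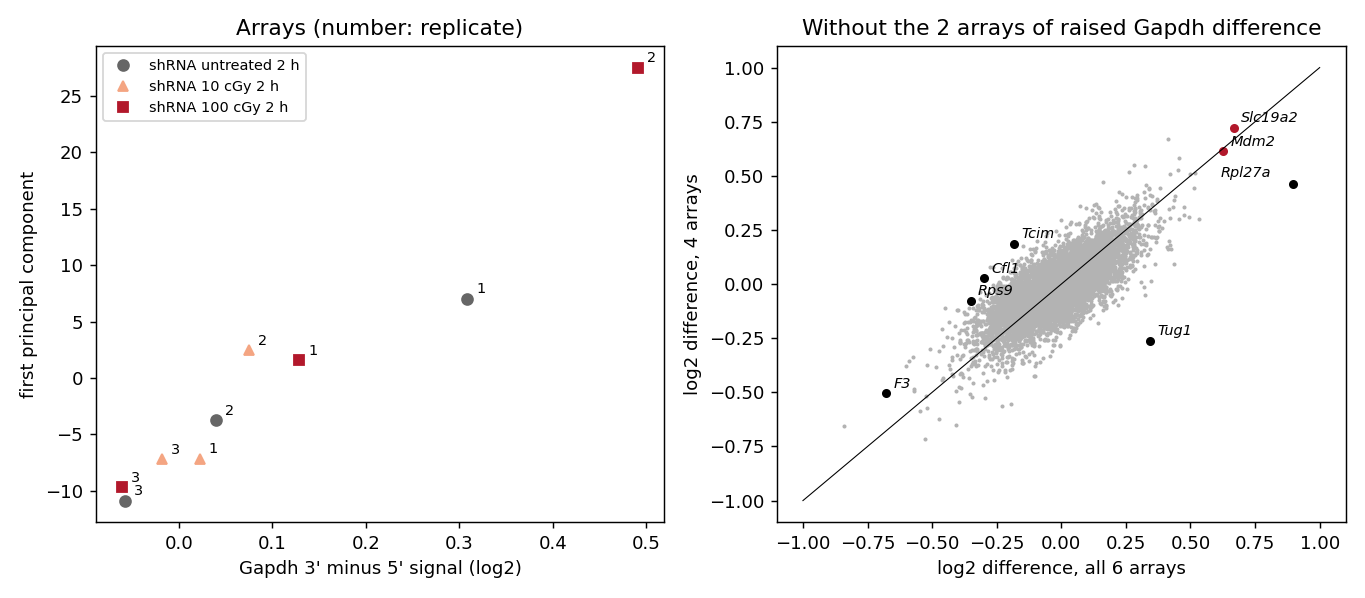
Left, the 9 shRNA arrays at 2 h by their Gapdh 3' minus 5' control difference (log2, x axis) and their first principal component (y axis); numbers are replicates, and 100 cGy replicate 2 lies apart at the upper right. Right, each tested gene by its log2 difference, 100 cGy minus untreated, with all 6 arrays (x axis) and without the 2 raised arrays (y axis), with the line of equality. Slc19a2 and Mdm2 (red) lie close to the line, while Tug1, Tcim and Cfl1 lie on opposite sides of 0 in the 2 estimates.

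Mdm2 signal was 10.54, 10.43 and 10.43 in the 3 arrays at 100 cGy, and 9.78, 9.93 and 9.81 in the untreated arrays. Every irradiated array lay above every untreated array. The difference was 0.63 ± 0.11 (SE, n = 3 per group, 95% interval 0.41 to 0.84, limma adjusted p = 0.00463). Slc19a2 signal was 8.94, 8.63 and 8.90 at 100 cGy and 8.07, 8.24 and 8.15 untreated. The 2 groups did not overlap, and replicate 2, the array of highest Gapdh difference, was the lowest of the irradiated arrays. The Slc19a2 difference was 0.67 ± 0.10 (95% interval 0.46 to 0.88, limma adjusted p = 0.00129). These 2 genes are 0.0231% of the 8675 tested, and the next smallest adjusted p was 0.317.

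**Figure D2:**
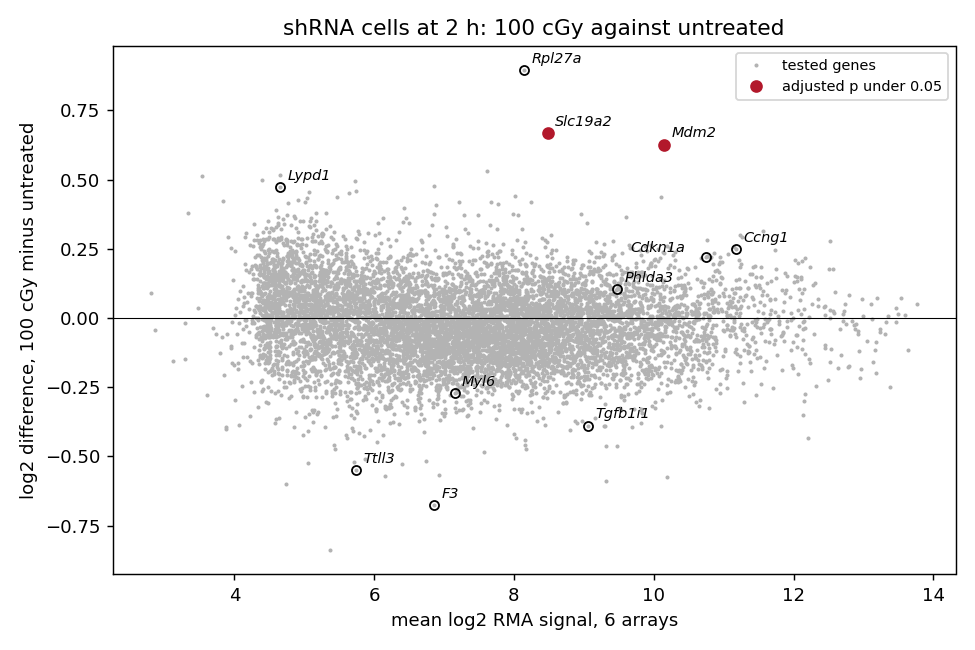
Each point is 1 of 8675 tested genes in shRNA cells at 2 h, by its mean log2 signal over the 6 arrays (x axis) and its log2 difference, 100 cGy minus untreated (y axis). Red points passed an adjusted p of 0.05: Slc19a2 at 0.67 and Mdm2 at 0.63. Rpl27a lies higher, at 0.90, but its irradiated and untreated arrays overlap.

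Both calls rest on few arrays. Without both raised arrays Slc19a2 still rose (0.72, limma adjusted p = 0.00809), whereas Mdm2 kept its size (0.61) and lost its call (limma adjusted p = 0.235). Leaving out 100 cGy replicate 1 ended both calls (limma adjusted p = 0.0631 for Mdm2 and 0.0513 for Slc19a2), and Mdm2 also lost its call without untreated replicate 1 (0.0810) or 3 (0.0606). With 100 cGy replicate 1 left out, 0 genes passed limma's adjusted p and 773 the unadjusted threshold of 0.05. When the spread was estimated from the 6 arrays alone rather than from all 47, no gene passed (limma adjusted p = 0.990 for both), and 158 did at an unadjusted p of 0.05.

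A second probe set of each gene is given beside the first. For Mdm2 it read 9.97, 9.25 and 10.27 at 100 cGy and 8.97, 9.32 and 9.69 untreated, a difference of 0.51 with overlapping groups and of 0.62 without both raised arrays. For Slc19a2 it read 6.62, 5.88 and 7.11 against 5.22, 6.14 and 6.39, a difference of 0.62 with overlap and of 0.61 without both. In each group the array with the raised Gapdh difference was the lowest of the 3. For Cdkn1a the second probe set read 7.92, 6.79 and 8.45 against 7.58, 7.90 and 8.08, again lowest in the raised arrays, and its difference was -0.13 with all arrays and 0.20 without both. The part of RNA quality in these probe sets was not tested. With the mean of all probe sets of a gene in place of the brightest, neither Mdm2 (0.57, limma adjusted p = 0.938) nor Slc19a2 (0.65, 0.943) passed.

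Cdkn1a signal was 10.93, 10.83 and 10.81 after 100 cGy and 10.70, 10.55 and 10.67 untreated. The groups did not overlap, and the difference was 0.22 ± 0.11 (95% interval -0.01 to 0.45, limma adjusted p = 0.909). Ccng1, a cyclin that recruits a phosphatase to Mdm2, read 11.35, 11.30 and 11.25 against 11.12, 11.08 and 10.95. Its difference was 0.25 ± 0.11 (interval 0.04 to 0.46, limma adjusted p = 0.909), and the other probe sets of Ccng1 differed by 0.13 and 0.07 with overlap. Phlda3, an inhibitor of Akt, read 9.60, 9.47 and 9.53 against 9.34, 9.52 and 9.43, with overlap. Its difference was 0.10 ± 0.10 (interval -0.10 to 0.31). A change of Cdkn1a by 0.45 or of Phlda3 by 0.31 thus lies at the edge of what these arrays allow.

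**Figure D3:**
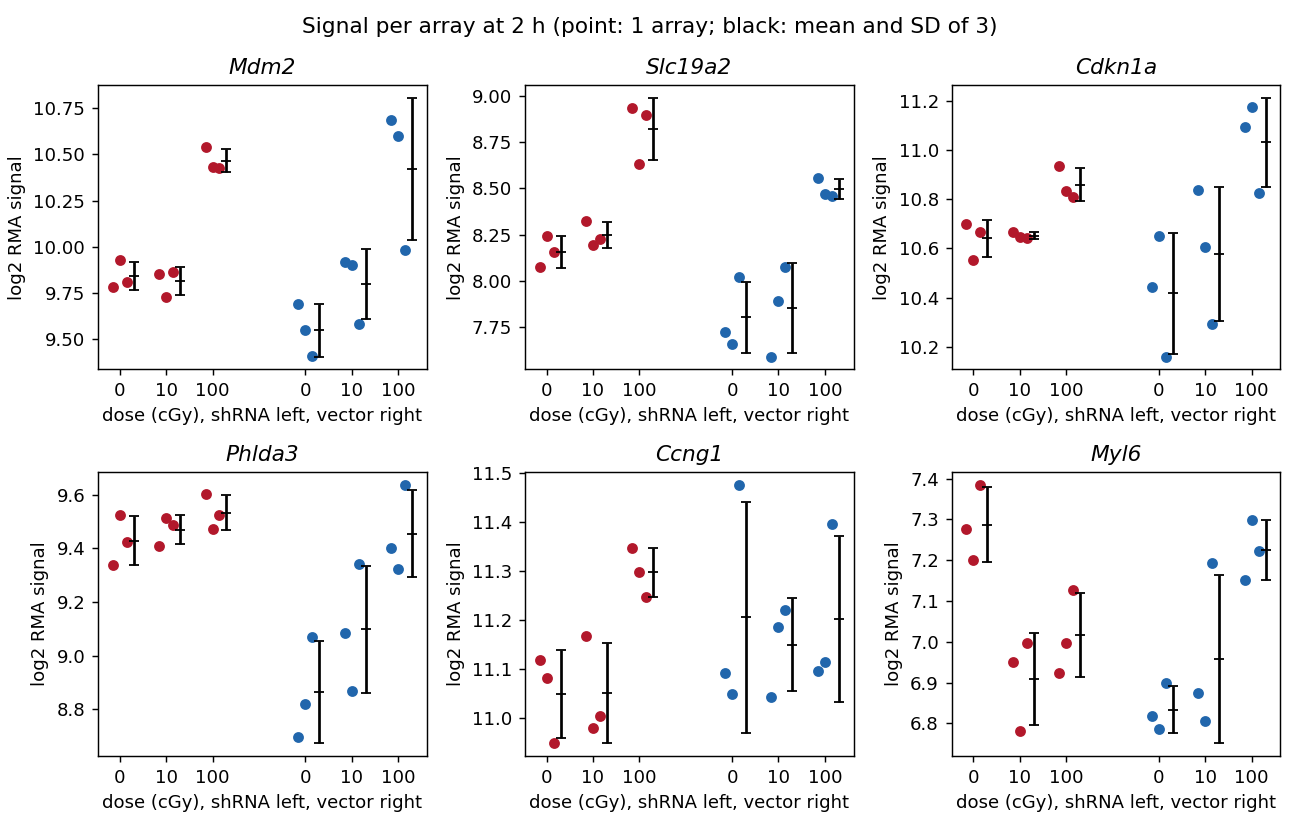
Log2 RMA signal (y axis) of 6 genes at 2 h by dose (x axis, cGy), shRNA cells on the left in red and vector cells on the right in blue; points are arrays and black bars the mean and SD of 3. Mdm2 and Slc19a2 at 100 cGy lie above all 0 and 10 cGy arrays of the shRNA line, and Myl6 at 100 cGy lies below untreated in shRNA cells and above it in vector cells.

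The list of p53 arrest and feedback genes had 28 members, of which 25 were tested. Slc19a2 had been placed on it with earlier results of these data known, so it is left out of the counts that follow. Of the other 24, 1 rose (Mdm2) and 0 fell. The irradiated arrays lay above the untreated without overlap for 6 (Cdkn1a, Mdm2, Ccng1, Ppm1d, Sesn2 and Trp53inp1) and below for 0, where 2.24% and 4.37% of all tested genes did so. The median difference over the 24 was 0.05, against -0.02 over all tested genes. Ppm1d, a phosphatase that turns off damage signalling, read 5.99, 5.86 and 5.92 against 5.79, 5.60 and 5.84. Sesn2, a stress sensor that restrains mTORC1, read 7.84, 8.12 and 7.68 against 7.13, 7.47 and 7.45. Its difference of 0.53 ± 0.30 fell to 0.30 without both raised arrays. Trp53inp1, a cofactor of p53, read 6.19, 5.79 and 5.92 against 5.58, 5.40 and 5.54, a difference of 0.46 ± 0.29. The SEs of Sesn2 and Trp53inp1 are large because the fit takes the spread over all 16 groups of the series, and neither passed (limma adjusted p = 0.909 for both). Btg2, an antiproliferative gene, and Gtse1, which restrains p53, had groups that overlapped, with differences of 0.18 ± 0.23 and 0.02 ± 0.17.

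Other arms of the damage response held no call. Over all tested genes, 1.34% were higher and 2.85% lower at an unadjusted p of 0.05. Of 16 tested p53-linked apoptosis genes 0 passed limma's adjusted p and 0 the unadjusted threshold of 0.05, with a median of -0.01. Tnfrsf10b, a death receptor, differed by -0.28 ± 0.17 and Pidd1, which drives caspase-2, by 0.13 ± 0.09. Of 17 p53-linked repair and metabolism genes 0 passed, and 1 was higher and 1 lower at an unadjusted p of 0.05, with a median of -0.03. In that list Polk, a polymerase that copies past damaged bases, read 7.99, 8.19 and 7.46 against 7.63, 7.38 and 7.37, with overlap and a difference of 0.42 ± 0.20. Rrm2b, a ribonucleotide reductase subunit, differed by 0.25 ± 0.13 and Ddb2, a sensor of ultraviolet damage, by -0.39 ± 0.21. Of 17 DNA damage signalling genes 0 passed and 1 was lower at the unadjusted threshold (H2ax), with a median of -0.01. H2ax, the histone that is phosphorylated beside breaks, read 8.64, 8.33 and 8.79 against 8.72, 8.97 and 8.99, a difference of -0.31 ± 0.11 with overlap. Of 29 DNA repair genes 0 passed (1 lower at the unadjusted threshold, median -0.04), and the exonuclease gene Exo1 differed by -0.22 ± 0.10.

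Of 36 mitotic genes, 0 passed limma's adjusted p and 2 were lower at an unadjusted p of 0.05, where 2.85% of all tested genes were. Their median was -0.07, and 28 had a difference below 0. The median over all tested genes was also below 0, at -0.02, and median centring brought the mitotic median to -0.016. Aurka and Plk1, kinases of the mitotic spindle, differed by -0.22 ± 0.10 and -0.27 ± 0.10. Aurka read 9.42, 9.18 and 9.34 against 9.47, 9.54 and 9.59, and the groups did not overlap, while those of Plk1 did. Without both raised arrays the median of the mitotic list was -0.02. Of 38 DNA replication genes 0 passed (1 higher at the unadjusted threshold, median -0.01). Ccne2, a cyclin that starts S phase, read 7.58, 7.71 and 7.71 against 7.36, 7.31 and 7.21, with a difference of 0.37 ± 0.16 and no overlap.

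The stress and inflammatory lists also held no call. Of 26 NF-kB inflammatory genes 0 passed limma's adjusted p and 2 were lower at an unadjusted p of 0.05 (2.85% of all tested genes), with a median of -0.10 that was -0.12 without both raised arrays. The irradiated arrays lay below the untreated without overlap for 7 of the 26 and above for 1, where 4.37% and 2.24% of all tested genes did so. Csf1, a macrophage growth factor, read 10.53, 10.36 and 10.49 against 10.63, 10.74 and 10.73. The Csf1 difference was -0.24 ± 0.09, and Birc3, an inhibitor of cell death, differed by -0.29 ± 0.12, both without overlap. Egr1, an immediate early transcription factor, read 9.36, 9.40 and 9.43 against 9.58, 9.65 and 9.64, a difference of -0.22 ± 0.13 without overlap. Among 27 immediate early genes, 15 interferon response genes, 24 NRF2 antioxidant genes, 30 ATF4 and unfolded protein genes and 14 heat shock genes, 0 passed in each at the adjusted or the unadjusted threshold, with medians between -0.07 and 0.01. Without overlap, 4 of the 27 immediate early genes lay below untreated and 0 above (4.37% and 2.24% of all tested genes). The immediate early median was -0.04, and 0.02 under median centring. In the rest of these lists at most 2 genes lay below and at most 1 above. Of 41 actin, myosin and adhesion genes 0 passed (1 higher and 1 lower at the unadjusted threshold, median -0.02), and the caveolin gene Cav1, at 11.61, 11.69 and 11.55 against 11.51, 11.46 and 11.43, differed by 0.15 ± 0.08. Of 16 annexin and S100 genes 0 passed (1 lower at the unadjusted threshold, median -0.08), and S100a10, the partner of annexin A2, differed by -0.25 ± 0.17 with overlap. The thiamine list was written with the result for Slc19a2 known, so that gene is left out of its count: of the other 7 tested members 0 passed at the adjusted or the unadjusted threshold. Slc19a1, the folate carrier of the same family, differed by 0.19 ± 0.11.

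Ribosomal protein and oxidative phosphorylation genes had the lowest list medians, -0.10 each over 20 and 26 tested genes, with 0 calls by limma and 2 lower genes each at an unadjusted p of 0.05, where 2.85% of all tested genes were lower. Both medians were -0.03 without both raised arrays. Rps9, of the small ribosomal subunit, read 12.16, 11.23 and 12.47 against 12.12, 12.36 and 12.43, so that replicate 2 alone was far below the others. The Rps9 difference was -0.35 with all arrays and -0.08 without both. Atp5o, an ATP synthase subunit, read 10.60, 9.95 and 10.94 against 10.67, 10.82 and 10.95, and its difference went from -0.32 to -0.12.

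At an unadjusted p of 0.05, 363 genes (4.18%) passed, 116 of them (1.34%) higher and 247 (2.85%) lower at 100 cGy. This split depends on the scale. Centring each array on its median gave 285 higher and 102 lower, and quantile normalization 159 and 208, with the median of all genes moving from -0.02 to 0.03 and to 0.00. Of the 23 gene lists, 10 had a median that changed sign under median centring and 3 under quantile normalization, among them the apoptosis and damage signalling lists under both. The p53 arrest, NF-kB, mitotic, ribosomal and oxidative phosphorylation medians kept their sign under both. Without both raised arrays 139 genes passed the unadjusted threshold, 83 of them shared with the 363 in the same direction. A shift of at least 0.3 was seen in 23 genes. Rpl27a, of the large ribosomal subunit, read 8.14, 10.33 and 7.32 against 8.57, 7.44 and 7.09, and its difference went from 0.90 to 0.46. The long noncoding RNA Tug1 went from 0.34 to -0.26, Tcim from -0.18 to 0.19 and the actin-severing factor Cfl1 from -0.30 to 0.03.

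Genes without overlap and with the smallest p-values set the size of difference below the calls. Tgfb1i1 (Hic-5), an adaptor of focal adhesions, read 9.05, 8.85 and 8.68 at 100 cGy and 9.20, 9.25 and 9.29 untreated. The Tgfb1i1 difference was -0.39 ± 0.09 (limma adjusted p = 0.317). Xdh, the xanthine oxidase of purine breakdown, read 7.43, 7.19 and 7.43 against 7.60, 7.77 and 7.70, and differed by -0.34 ± 0.08. F3, tissue factor, the starter of blood clotting, read 6.77, 6.03 and 6.78 against 7.05, 7.24 and 7.31, and its difference of -0.68 ± 0.18 was -0.50 without both raised arrays. The homeobox gene Dlx2 (-0.57), the tubulin glycylase gene Ttll3 (-0.55), Rhbdl1 (-0.47), Ndufaf3 (-0.40), Gramd1a (-0.37), Stom (-0.34) and Kri1 (-0.33) completed the 10 lowest by p. On the higher side Lypd1 read 4.73, 5.15 and 4.80 against 4.37, 4.46 and 4.43, a difference of 0.47 ± 0.11 that was 0.32 without both raised arrays. Tle2, a corepressor, differed by 0.50 ± 0.14, Adgrb1 by 0.29 ± 0.08, and the clock factor gene Npas2 by 0.39 ± 0.13. Myl3 (0.38), Tcf15 (0.34), Prss21 (0.28) and Ubxn11 (0.52) followed, and these higher genes all had dim signals, not far above the low-signal limit of 4.35.

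A 10 cGy dose at the same time gave a second reference, which shares the 100 cGy arrays with the first. Mdm2 read 9.85, 9.73 and 9.86 at 10 cGy and Slc19a2 8.32, 8.19 and 8.23, within or next to the untreated values. Against 10 cGy, Mdm2 rose by 0.65 ± 0.11 (limma adjusted p = 0.00411) and Slc19a2 by 0.58 ± 0.10 (limma adjusted p = 0.0100), and these were again the only 2 genes called (0.0231%). Both calls were kept without the raised irradiated array or with both raised arrays left out, and both were lost without 100 cGy replicate 1 or 10 cGy replicate 2. Slc19a2 alone was also lost without 100 cGy replicate 3 or 10 cGy replicate 3, and both when only the arrays compared set the spread. Cdkn1a differed by 0.21 ± 0.11, Ccng1 by 0.25 ± 0.11 and Phlda3 by 0.06 ± 0.10. Atm, the kinase that senses double-strand breaks, read 7.61, 7.41 and 7.34 at 100 cGy, 7.13, 6.83 and 6.94 at 10 cGy and 7.39, 7.32 and 7.25 untreated. Its difference from 10 cGy was 0.49 ± 0.11 (limma adjusted p = 0.154), and from untreated 0.14 ± 0.11. In the Atm values the 10 cGy arrays are the low ones.

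At 24 h the signals of both genes lay closer to those of untreated cells than at 2 h. In shRNA cells the Mdm2 mean at 100 cGy was 10.47 ± 0.06 (SD, n = 3) at 2 h, 10.12 ± 0.04 at 6 h and 9.45 ± 0.02 at 24 h. At 10 cGy the Mdm2 means were 9.81, 9.65 and 9.29, and untreated cells had 9.84 at 2 h and 9.37 at 24 h. Slc19a2 at 100 cGy went from 8.82 ± 0.17 at 2 h to 8.75 at 6 h and 8.21 ± 0.07 at 24 h, where untreated cells stood at 8.32. No untreated 6 h group was used here, and these later values are given without a test.

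**Figure D4:**
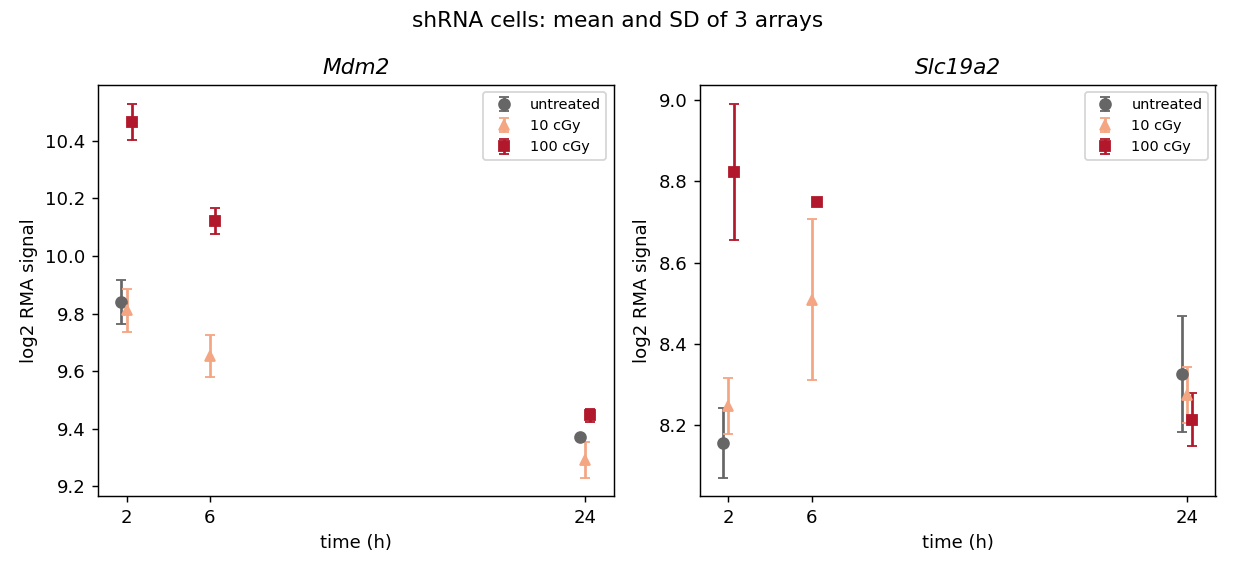
Mean log2 RMA signal (y axis) of Mdm2 and Slc19a2 in shRNA cells by time (x axis, h) and dose; bars are the SD of 3 arrays. Mdm2 at 100 cGy goes from 10.47 at 2 h to 9.45 at 24 h, and Slc19a2 from 8.82 to 8.21.

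Vector cells under the same dose and time give the response with annexin A2 at its usual level. Here 4 genes rose (0.0461%): Mdm2 by 0.88 ± 0.11, Slc19a2 by 0.70 ± 0.10, Cdkn1a by 0.61 ± 0.11 and Phlda3 by 0.59 ± 0.10 (limma adjusted p = 0.00719 or lower). Leaving out single vector arrays gave 2 to 23 calls, and the call was lost for Cdkn1a in 4 of these (vector 100 cGy 1 and 2, vector untreated 1 and 3) and for Phlda3 in 1 (vector untreated 1). With the mean of all probe sets of a gene, Slc19a2 (0.77, limma adjusted p = 0.237) and Cdkn1a (0.87, 0.104) lost their vector calls. All 4 were lost when only the groups compared set the spread (limma adjusted p = 0.617). Vector untreated replicate 3 had control differences of 0.594 (Gapdh) and 0.619 (Actb), above both raised shRNA arrays. Results without both raised arrays still hold this vector array. The question is whether the lines differ, which the shRNA response minus the vector response tests. That difference was -0.25 ± 0.15 for Mdm2 (95% interval -0.56 to 0.06, limma adjusted p = 0.480) and -0.03 ± 0.15 for Slc19a2 (interval -0.32 to 0.27, adjusted p = 0.956). For Cdkn1a it was -0.40 ± 0.16 (interval -0.72 to -0.07, limma adjusted p = 0.348) and for Phlda3 -0.49 ± 0.14 (interval -0.77 to -0.20, limma adjusted p = 0.345). These values are from the brightest probe sets. The second probe set of Mdm2 differed by 1.30 in vector and 0.51 in shRNA cells, and that of Cdkn1a by 1.13 and -0.13. That of Slc19a2 differed by 0.84 and 0.62. Ccng1 differed by -0.003 in vector cells with its brightest probe set and by 0.44 and 0.30 with the others. On the second sets of Mdm2, Cdkn1a and Slc19a2, vector untreated replicate 3 was the lowest of its group. These other probe sets were not tested singly. With gene-by-gene array weights, chosen after the data were seen, the Phlda3 difference passed (-0.54, limma adjusted p = 0.00474). With equal weights, a call of Cdkn1a and Phlda3 in vector cells alone is not shown to be a difference between the lines. The untreated levels differ as well: untreated Phlda3 was 9.34, 9.52 and 9.43 in shRNA cells and 8.70, 8.82 and 9.07 in vector cells, while the irradiated values, 9.60, 9.47 and 9.53 against 9.40, 9.32 and 9.64, overlapped. Over the 24 arrest genes other than Slc19a2, the median response was 0.05 in shRNA and 0.19 in vector cells, with 1 and 3 calls.

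**Figure D5:**
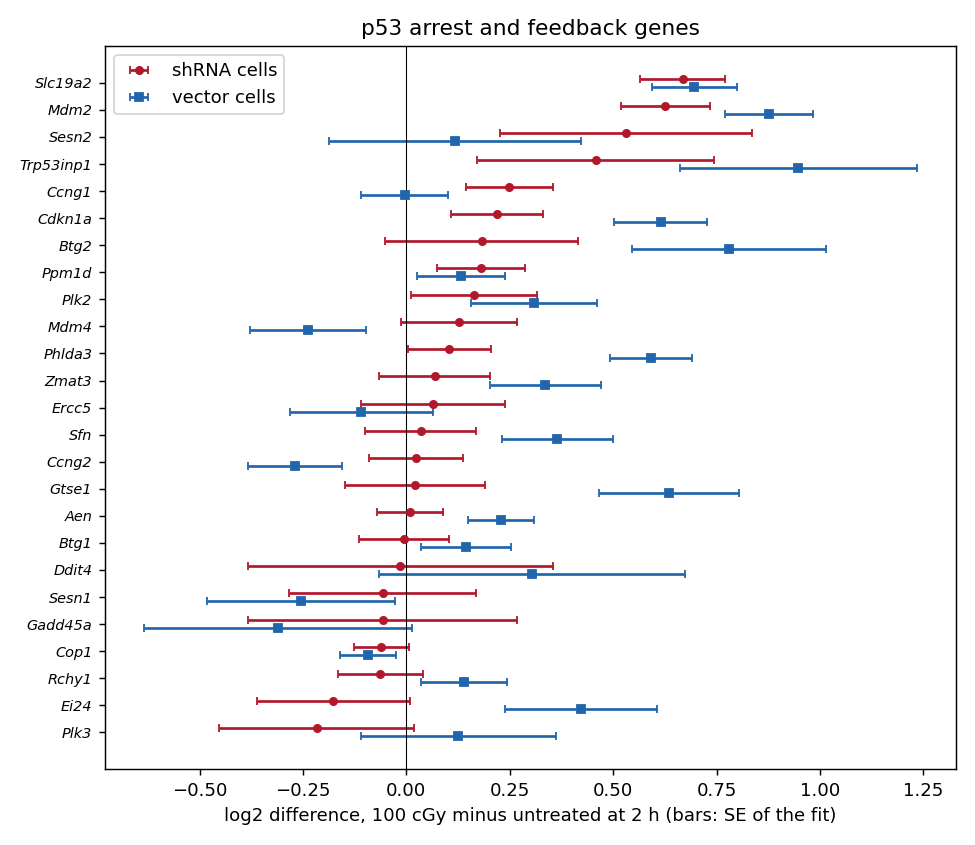
Log2 difference, 100 cGy minus untreated at 2 h (x axis), of the 25 tested p53 arrest and feedback genes (y axis) in shRNA cells (red circles) and vector cells (blue squares), with bars for the SE of the fit. Slc19a2 has nearly the same value in both lines, and Cdkn1a and Phlda3 are at 0.22 and 0.10 in shRNA cells against 0.61 and 0.59 in vector cells.

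One gene, Myl6, responded differently in the lines (0.0115% of tested genes; 1091, or 12.6%, at an unadjusted p of 0.05). Myl6, a light chain of nonmuscle and smooth muscle myosin, read 6.92, 7.00 and 7.13 at 100 cGy and 7.28, 7.20 and 7.39 untreated in shRNA cells, a difference of -0.27 ± 0.08 that did not pass (limma adjusted p = 0.909). In vector cells it read 7.15, 7.30 and 7.22 against 6.82, 6.79 and 6.90, a difference of 0.39 ± 0.08 (limma adjusted p = 0.0593). The Myl6 difference in vector cells did pass under median centring (0.43, limma adjusted p = 0.0101), quantile normalization (0.43, 0.0165), a stricter low-signal filter (0.0316), gene-by-gene array weights (0.000125) and without the vector replicate 3 arrays at 2 h (0.0350). The responses differed by -0.66 ± 0.12 (limma adjusted p = 0.0177), and in neither line did the groups overlap. At 10 cGy the shRNA arrays read 6.95, 6.78 and 7.00, so that the untreated arrays are the high ones in this line. The Myl6 call was lost without any of 6 single arrays (shRNA 100 cGy replicates 1 and 2, shRNA untreated 1 and 3, vector 100 cGy 2 and vector untreated 1), with an adjusted p between 0.0574 and 0.161, and without both raised arrays (0.178). It was also lost when only the groups compared set the spread (limma adjusted p = 0.733). The size of the Myl6 difference between lines stayed between -0.72 and -0.61 in all alternatives run.

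Neat1, the noncoding RNA that builds paraspeckles, had the next smallest p for the difference between lines, -1.21 ± 0.26 (limma adjusted p = 0.213). In shRNA cells it read 9.72, 9.55 and 9.61 at 100 cGy, 10.04, 9.98 and 10.00 untreated and 9.22, 9.14 and 9.08 at 10 cGy. In vector cells it read 8.70, 8.76 and 9.11 at 100 cGy and 7.88, 7.81 and 8.40 untreated. Replicate 3 was the highest of its group in both vector groups. The difference between lines passed without vector untreated replicate 3 (-1.39, limma adjusted p = 0.0301) and with gene-by-gene array weights (-1.17, 3e-06). Without the 3 vector replicate 3 arrays at 2 h, an alternative chosen after the data were seen, the difference was -1.27 (limma adjusted p = 1.235e-08), and Neat1 in shRNA cells also passed (-0.38, limma adjusted p = 0.0330). That -0.38 is the same value as with all arrays, with a smaller estimate of the spread, since no shRNA array was left out. The vector untreated replicate 3 array had a Gapdh difference of 0.594, above every shRNA array at 2 h. Usp1, which removes ubiquitin from repair proteins, and Cdc73, of the PAF1 complex, had differences between lines of 0.61 ± 0.14 and 0.56 ± 0.13 (limma adjusted p = 0.264 for both). Usp1 passed without vector untreated replicate 2 (0.72, limma adjusted p = 0.0408), and both passed with array weights (0.00184 for Usp1 and 0.00220 for Cdc73).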

How the data were processed

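RNA of 47 samples was measured on Affymetrix mouse arrays with 22690 probe sets, of a model not given in the sources used here. Log2 signals were deposited, made by the authors with RMA per the submitters' processing notes (its version is also not given). They lie between 1.84 and 14.03 and were used as deposited. The number of arrays limits the precision.

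After 64 control probe sets were set aside, 20380 carried exactly 1 symbol in GEO's annotation and were kept, while 691 with several symbols and 1555 without any were dropped. Each of 12393 genes took its brightest probe set over all arrays, and the dimmest 30% (mean under 4.35) were left out, leaving 8675. Other probe sets are given for Mdm2, Slc19a2, Cdkn1a and Ccng1. One linear model of 16 groups was fitted to the 47 arrays with limma 3.58.1 (R 4.3.3), with 31 residual and 5.68 prior degrees of freedom and two-sided Benjamini-Hochberg p-values over the tested genes. A gene was called at an adjusted p under 0.05. The script was tested on simulated data. Promoter sequences are from RefSeq (GRCm38.p6).

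Named were 7 set genes, called genes, the 10 higher and 10 lower genes of smallest p without overlap, up to 4 members per list by smallest p, and genes that moved most without both arrays of raised Gapdh difference. The samples compared and the gene lists were chosen with earlier results of these data known. Alternatives were left-out arrays, a Gapdh covariate, array weights, a replicate block, other filters, scalings and probe set rules.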

Additional observations from a re-analysis of the deposited data

Results flagged for a closer look

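The response of Myl6 to 100 cGy at 2 h differed between the shRNA and the vector line by -0.66 on the log2 scale, in a test of the difference itself (limma adjusted p = 0.0177). It was lower at 100 cGy than untreated in all 3 shRNA arrays and higher in all 3 vector arrays. In the fit as designed neither response passed on its own (limma adjusted p = 0.909 in shRNA and 0.0593 in vector cells), but the vector response passed in 6 of 18 alternatives. The call for the difference between lines was lost in 8 of 24 alternatives. Among these were the fits without both raised arrays (limma adjusted p = 0.178) and with only the groups compared (0.733).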

How the results depend on the processing

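Leaving out 1 array at a time gave 0 to 2 calls for 100 cGy against untreated in shRNA cells (2 with all arrays), 0 to 5 for the difference between lines (1), 0 to 2 against 10 cGy (2) and 2 to 23 in vector cells (4). Without both arrays of raised Gapdh difference the first 2 counts were 1 and 0; a Gapdh covariate left all 4 counts as they were. Estimating the spread from only the groups compared gave 0 calls in shRNA cells against either reference, 0 between lines and 0 in vector cells (158, 292, 446 and 665 at an unadjusted p under 0.05). Gene-by-gene array weights gave 13, 526, 264 and 580, chosen after the default weights had stopped before convergence with 204, 1733, 1090 and 1619. The mean of all probe sets gave 0 and 0 calls in shRNA cells against untreated and 10 cGy, 1 between lines and 3 in vector cells. The replicate block gave 2, 4, 3 and 21. Deviations from the group mean correlated at -0.17, -0.13 and 0.57 between same-numbered arrays of the 2 shRNA groups. The highest value, 0.61, was between the 2 raised arrays, 100 cGy replicate 2 and untreated replicate 1. The labels do not say what the numbers share, so they are not taken to pair samples. With the block Neat1 passed between lines (-1.21, limma adjusted p = 0.00256) and in vector cells (0.83, 0.000916), and Myl6 in vector cells (0.39, 0.0278). For vector cells median centring gave 7 and quantile normalization 8. Without the vector replicate 3 arrays at 2 h (chosen after the data were seen) the counts were 3, 5, 4 and 14. Of 1554 recomputed gene differences 1455 kept their direction and side of the threshold, 38 lost and 28 gained a call, and 33 changed sign. For 100 cGy minus untreated in shRNA cells, those were Cfl1 at 0.028, Tcim at 0.19, Tug1 at -0.26, Anxa2 at 0.031 and Gtse1 at -0.001 without both raised arrays, and Tcim at 0.17 and Btg2 at -0.0071 with array weights. With single arrays left out, Rps9 ranged from -0.61 to 0.012, S100a10 from -0.49 to 0.0059, Tcim from -0.37 to 0.18, Tug1 from -0.0093 to 0.64, Anxa2 from -0.14 to 0.042, Btg2 from -0.095 to 0.37 and Gtse1 from -0.074 to 0.10. Slc19a2 between lines was 0.0262 without both raised arrays and 0.0257 with the covariate, and from -0.14 to 0.068 with an array left out. Ccng1 between lines was -0.098 and Cdkn1a against 10 cGy -0.092 with the mean of all probe sets. Ccng1 in vector cells was 0.0798 with the covariate, 0.0274 with array weights, 0.0349 with median centring, 0.247 with the mean of all probe sets, 0.0347 without the vector replicate 3 arrays and from -0.10 to 0.13 with an array left out. The causes were not tested.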
